A study of Mus musculus with 28 samples.

Results

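The 8 genes described here encode the receptor for leukaemia inhibitory factor (LIF), the transcription factor STAT3 and genes that STAT3 is known to act on: Lifr, Il6st, Stat3, Socs3, Bcl3, Pim1, Pim3 and Junb. They were taken by symbol from the deposited expression table of 30386 genes, where each symbol had 1 row, and all 8 were among the 11080 genes with enough counts to test. The cells were E14, a mouse embryonic stem cell line grown on gelatin, and RNA was read by 3′ digital gene expression sequencing, which counts fragments from the ends of polyadenylated transcripts. 2iL is the GSK3 inhibitor CHIR99021, the MEK inhibitor PD0325901 and LIF, added to N2B27 medium. Its removal lasted 24, 48, 96 or 120 h in 4 groups, and in the groups called 48 h + 2iL and 96 h + 2iL it was added back for a further 24 h after 48 or 96 h without it. The group kept in 2iL was never withdrawn. Each of the 7 groups had 4 libraries, 1 from each of 4 numbered experiments. Withdrawal and return changed both inhibitors and LIF together, so the part of LIF in a change cannot be told apart from that of the inhibitors. All libraries come from this 1 line, and nothing in the labels says whether experiments began from separate stocks.

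LIF binds the receptor chain encoded by Lifr, which then pairs with gp130, the shared chain encoded by Il6st. JAK kinases held by these chains phosphorylate STAT3, which enters the nucleus and activates its targets. In mouse embryonic stem cells this pathway is known for sustaining self-renewal. Among the targets, Socs3 encodes a feedback inhibitor that binds gp130 and JAK, Bcl3 an I-kappa-B family protein that works in the nucleus with NF-kB subunits, Pim1 and Pim3 related serine/threonine kinases that favour survival, and Junb an AP-1 transcription factor.

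In GENCODE M21 (GRCm38, which is mm10), Lifr lies on chromosome 15 from 7090614 to 7197489 (+ strand), Il6st on chromosome 13 from 112464070 to 112510086 (+), Stat3 on chromosome 11 from 100885098 to 100939540 (- strand) and Socs3 on chromosome 11 from 117966079 to 117970047 (-). Bcl3 lies on chromosome 7 from 19808462 to 19822770 (-), Pim1 on chromosome 17 from 29490753 to 29496112 (+), Pim3 on chromosome 15 from 88862186 to 88865726 (+) and Junb on chromosome 8 from 84974484 to 84978718 (-). Exons of Junb overlap those of Prdx2 on the other strand, and Prdx2 had 11165 counts over the 28 libraries against 579 of Junb. Whether counting used strand is not given in the sources used here, so values of Junb are uncertain. Stat3 overlaps Stat5a in the same way, but Stat5a had 63 counts against 4115 of Stat3.

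STAT dimers are known to prefer the palindromic letters TTCNNNGAA, which read the same on both strands. These letters were searched in the 250 bases before each annotated transcription start (RefSeq, GRCm38.p6), which gave 10 windows for the 8 genes because Lifr and Pim1 have more than 1 start. The search found 1 window with a match, that of Socs3, against 7.02% of 32851 windows over all genes. The match in Socs3 lies at bases -154 to -146 from the start and reads TTCTTAGAA. The RefSeq start of Socs3 lies inside the GENCODE gene span, so its window does too. Shown are the Socs3 window, as the one with a match, and those of Stat3, Bcl3 and Pim1 (its first start), as the 3 genes that rose in both comparisons of returned 2iL below. Capitals mark the match, and each window runs 5′ to 3′ on the gene's own strand.
Socs3, chr11:117969367-117969616, - strand: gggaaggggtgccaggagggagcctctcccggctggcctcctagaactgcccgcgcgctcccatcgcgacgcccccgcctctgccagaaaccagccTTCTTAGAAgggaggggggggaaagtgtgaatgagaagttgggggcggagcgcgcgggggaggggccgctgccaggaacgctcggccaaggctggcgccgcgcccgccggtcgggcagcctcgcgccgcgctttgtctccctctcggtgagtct
Stat3, chr11:100939541-100939790, - strand: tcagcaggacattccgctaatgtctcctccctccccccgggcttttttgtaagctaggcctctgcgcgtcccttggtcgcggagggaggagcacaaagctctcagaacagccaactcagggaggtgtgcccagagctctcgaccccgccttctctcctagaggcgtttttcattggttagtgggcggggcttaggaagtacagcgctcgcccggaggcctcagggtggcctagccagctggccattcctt
Bcl3, chr7:19822756-19823005, - strand: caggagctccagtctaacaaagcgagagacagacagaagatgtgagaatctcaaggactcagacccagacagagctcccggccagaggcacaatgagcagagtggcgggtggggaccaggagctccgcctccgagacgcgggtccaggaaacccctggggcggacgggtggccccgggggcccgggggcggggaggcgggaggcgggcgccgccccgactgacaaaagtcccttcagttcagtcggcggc
Pim1, chr17:29490535-29490784, + strand: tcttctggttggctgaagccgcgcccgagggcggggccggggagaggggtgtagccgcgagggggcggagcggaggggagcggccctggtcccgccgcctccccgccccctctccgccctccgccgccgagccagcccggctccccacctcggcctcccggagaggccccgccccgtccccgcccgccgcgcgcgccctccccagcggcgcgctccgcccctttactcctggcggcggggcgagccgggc
A match is a description of the letters and not a binding site, and a window with no match says nothing of sites elsewhere. By base composition, G and C made up 71.6% of the Socs3 window, 60.8% of the Stat3 window, 67.6% of the Bcl3 window and 82.4% of the Pim1 window, against a median of 52.4% over all windows.

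Total gene counts ranged from 1554830 to 2828694 per library, and values below are CPM, counts scaled to a common library total, after TMM scaling. The 6 markers of naive embryonic stem cells were Nanog, Esrrb, Zfp42, Klf2, Tfcp2l1 and Pou5f1. In 2iL the cells carried the labelled identity: the summed level of these 6 was 1369 to 1607 CPM per library, with all 6 detected. This sum was 581 to 737 CPM at 24 h, 224 to 343 at 48 h, 58.0 to 185 at 96 h and 42.8 to 76.8 at 120 h. It was 1140 to 1426 CPM in 48 h + 2iL and 70.6 to 559 in 96 h + 2iL. By the test given below, 5 of these 6 markers fell relative to 2iL at 48 h and at 96 h, all but Pou5f1. In 96 h + 2iL over 96 h, Tfcp2l1, Nanog, Esrrb and Klf2 rose and Pou5f1 fell. The sum of 5 formative or primed epiblast markers was 88.0 to 131 CPM in 2iL, 725 to 925 at 24 h and 1593 to 2232 at 48 h. It was still 1211 to 2285 CPM at 96 h and 603 to 1318 at 120 h. With 2iL returned this formative sum was 182 to 265 CPM in 48 h + 2iL and 224 to 501 in 96 h + 2iL. The summed level of 5 neural progenitor markers was 77.6 to 238 CPM at 96 h, 207 to 476 at 120 h, 157 to 538 in 96 h + 2iL and 12.8 to 23.2 in 2iL. Of 5 astroglial markers, 2 were tested. Slc1a3 was higher at 120 h than in 2iL, at 27.9 against 1.73 CPM, and Aldh1l1 lower, at 2.11 against 24.4 CPM. The other 3 were near 0, with Gfap at 2 counts, Aqp4 at 8 and S100b at 6 at 120 h, and at 9, 10 and 1 counts at 96 h, against 0, 0 and 2 in 2iL. Of 6 fibroblast markers all were detected in every group, with sums of 90.8 to 410 CPM over all libraries, mostly from Col1a1 and Col1a2. Primitive endoderm markers summed to 0.471 to 18.8 CPM. Mitochondrially encoded transcripts made up 1.14% to 3.10% of counts, and 6 of 9 such genes fell at 120 h and in 96 h + 2iL relative to 2iL. The part of these shifts in the results on the 8 genes was not tested, and in bulk RNA fewer cells of a type and less RNA per cell cannot be told apart.

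More of the 8 genes passed the test for a fall relative to 2iL with longer withdrawal, up to 96 h. Differences in timing between the genes were not tested. At 24 h, 3 of 8 had fallen relative to 2iL (Il6st, Bcl3 and Pim1), at 48 h 7 of 8 (all but Lifr), and at 96 h and 120 h all 8. For comparison, 8.29% of all tested genes fell and 7.68% rose at 24 h, 13.2% fell and 14.6% rose at 48 h, 19.2% fell and 21.9% rose at 96 h, and 22.6% fell and 24.6% rose at 120 h. The median log2 fold change of the 8 was -0.64 at 24 h, -1.28 at 48 h, -2.17 at 96 h and -2.27 at 120 h, beside medians over all genes of 0.01, 0.02, 0.02 and 0.01. Fell and rose are used where the Benjamini-Hochberg adjusted p of edgeR's quasi-likelihood test over all 11080 genes was under 0.05, and each change is given on the log2 scale with ± its standard error, from 4 libraries a group. The 4 comparisons share the 2iL libraries.

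**Figure D1:**
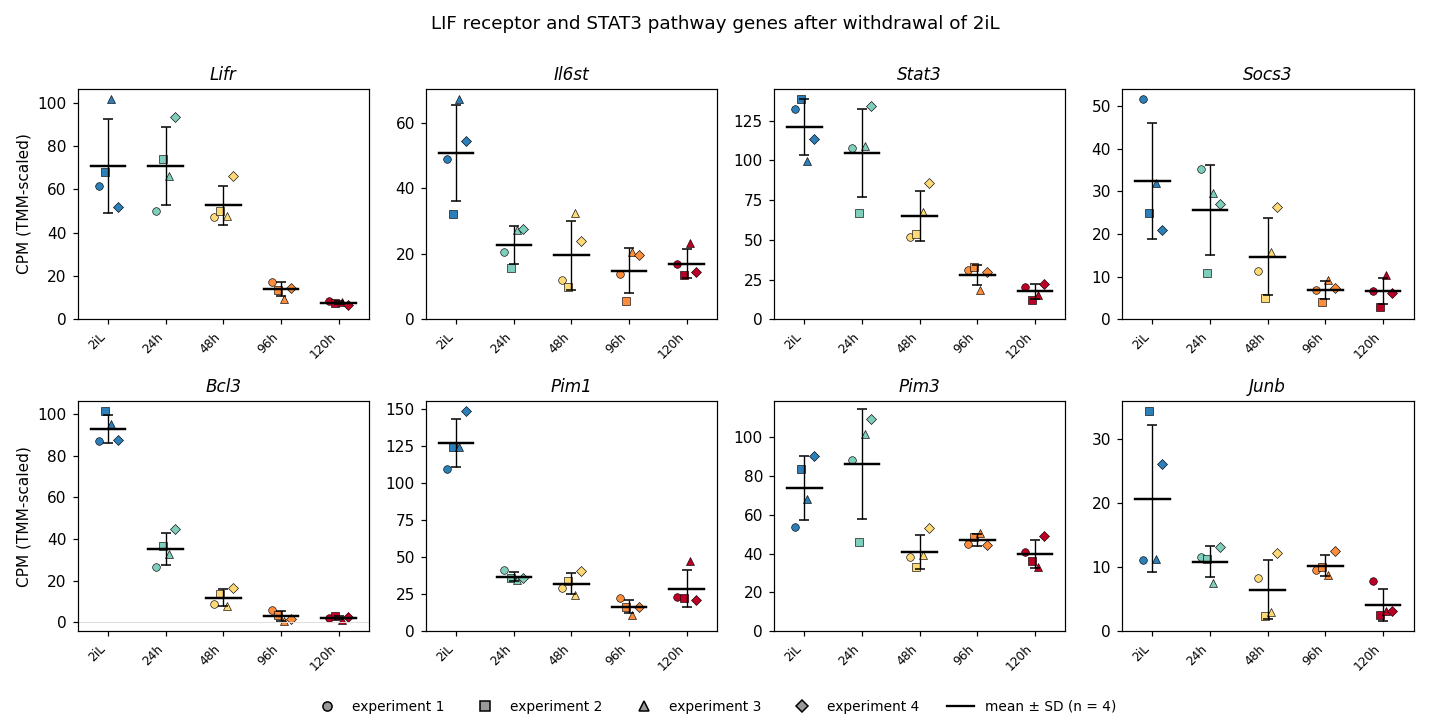
CPM after TMM scaling (vertical axis) of each of the 8 genes in 2iL and after 24, 48, 96 and 120 h of withdrawal (horizontal axis). Symbols are single libraries by experiment, lines are means and bars are SD over 4 libraries. Bcl3 and Pim1 lie below every 2iL library from 24 h on, while Lifr overlaps 2iL until 48 h.

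Of the receptor chains, Lifr kept its level for a day and was lost late. Its libraries, in the order of experiments 1 to 4, were at 61.8, 68.3, 102 and 51.7 CPM in 2iL. They were at 49.8, 74.0, 66.2 and 93.3 CPM at 24 h and at 47.2, 49.9, 47.6 and 66.2 CPM at 48 h. At 96 h the values were 17.4, 13.7, 9.59 and 14.6 CPM, and at 120 h they were 8.58, 7.45, 8.11 and 6.70 CPM. The 24 h and 48 h libraries overlap those of 2iL, and the 96 h and 120 h libraries all lie below them. The change was -0.01 ± 0.21 at 24 h (adjusted p = 0.984), -0.44 ± 0.21 at 48 h (adjusted p = 0.125), -2.36 ± 0.23 at 96 h (adjusted p = 6.53e-10) and -3.19 ± 0.25 at 120 h (adjusted p = 4.02e-12). The step between 48 h and 96 h was itself past the test (96 h over 48 h, -1.92 ± 0.23, adjusted p = 5.27e-07), while 48 h over 24 h was at -0.43 ± 0.21 (adjusted p = 0.27) and 120 h over 96 h at -0.83 ± 0.27 (adjusted p = 0.102).

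Il6st, the chain shared by the whole cytokine family, fell on the first day and then stayed low. Its libraries were at 20.7, 15.6, 27.1 and 27.6 CPM at 24 h, against 48.8, 32.2, 67.3 and 54.5 CPM in 2iL, so every 24 h library lies below every 2iL library. The change was -1.17 ± 0.32 at 24 h (adjusted p = 0.0103), -1.40 ± 0.32 at 48 h (adjusted p = 0.00117), -1.77 ± 0.32 at 96 h (adjusted p = 3.86e-05) and -1.57 ± 0.32 at 120 h (adjusted p = 0.000126). Steps after 24 h did not pass the test: 48 h over 24 h was at -0.23 ± 0.34 (adjusted p = 0.786), 96 h over 48 h at -0.37 ± 0.34 (adjusted p = 0.481) and 120 h over 96 h at 0.20 ± 0.34 (adjusted p = 0.828). At 48 h the highest library, of experiment 3, reached 32.4 CPM and touched the range of 2iL.

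Stat3, the signal transducer itself, fell between 24 h and 48 h and again between 48 h and 96 h. It averaged 121 ± 17.9 CPM in 2iL, 105 ± 27.8 at 24 h, 64.8 ± 15.7 at 48 h, 28.1 ± 6.35 at 96 h and 17.5 ± 4.5 at 120 h (SD, n = 4). The libraries were at 20.1, 12.4, 15.3 and 22.3 CPM at 120 h, against 132, 139, 99.6 and 114 CPM in 2iL. Relative to 2iL the change was -0.22 ± 0.19 at 24 h (adjusted p = 0.513), -0.91 ± 0.20 at 48 h (adjusted p = 0.000668), -2.10 ± 0.21 at 96 h (adjusted p = 8.74e-10) and -2.77 ± 0.22 at 120 h (adjusted p = 5.71e-12). The step of 96 h over 48 h was at -1.20 ± 0.21 (adjusted p = 0.000115), and that of 120 h over 96 h at -0.67 ± 0.23 (adjusted p = 0.132). From 48 h on, all its libraries lie below those of 2iL. The step of 48 h over 24 h (-0.69 ± 0.20, adjusted p = 0.0335) was lost in 6 of 8 fits that leave out 1 library. The adjusted p was then 0.0717, 0.0731 and 0.144 without the 24 h library of experiment 1, 3 or 4, and 0.117, 0.109 and 0.0695 without the 48 h library of experiment 1, 2 or 3.

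Socs3 averaged 32.4 ± 13.6 CPM in 2iL, 25.7 ± 10.5 at 24 h, 14.6 ± 9.01 at 48 h, 6.85 ± 2.11 at 96 h and 6.58 ± 3.02 at 120 h (SD, n = 4). The libraries were at 51.7, 24.9, 31.9 and 21 CPM in 2iL, 11.4, 4.94, 15.9 and 26.4 CPM at 48 h, and 6.71, 2.98, 10.4 and 6.25 CPM at 120 h. The 48 h libraries overlap those of 2iL, and the 120 h libraries do not. This feedback inhibitor was at -0.35 ± 0.36 at 24 h (adjusted p = 0.581). It fell by 1.17 ± 0.38 at 48 h (adjusted p = 0.018), by 2.24 ± 0.40 at 96 h (adjusted p = 2.57e-05) and by 2.28 ± 0.40 at 120 h (adjusted p = 1.68e-05). The 48 h call was lost without the 2iL library of experiment 1 (adjusted p = 0.101) or the 48 h library of experiment 1 (0.0578) or 2 (0.087). The step of 48 h over 24 h was at -0.82 ± 0.39 (adjusted p = 0.238) and that of 120 h over 96 h at -0.04 ± 0.45 (adjusted p = 0.979). Between 48 h and 96 h it was at -1.07 ± 0.42 (adjusted p = 0.0668), and with the experiment as a block at -1.05 (adjusted p = 0.0263). Without the 48 h library of experiment 2 it was at -1.36 (adjusted p = 0.0202). Over all alternative fits this step ran from -1.36 to -0.62 and its adjusted p from 0.0202 to 0.364.

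Bcl3 had the deepest loss of the 8 by fitted fold change at 48, 96 and 120 h. Its libraries were at 87.0, 101, 95.4 and 87.4 CPM in 2iL and at 26.7, 36.8, 32.8 and 44.9 CPM at 24 h. They were at 8.81, 13.8, 7.94 and 16.6 CPM at 48 h, 5.96, 3.64, 0.872 and 1.62 CPM at 96 h, and 2.24, 2.98, 1.35 and 2.68 CPM at 120 h. The first 3 of these groups in time do not overlap each other or the later ones, while 96 h and 120 h overlap. The change relative to 2iL was -1.40 ± 0.29 at 24 h (adjusted p = 0.000662), -2.97 ± 0.32 at 48 h (adjusted p = 9.66e-09), -4.93 ± 0.37 at 96 h (adjusted p = 2.70e-12) and -5.30 ± 0.39 at 120 h (adjusted p = 1.12e-12). Each earlier step passed the test as well, with 48 h over 24 h at -1.58 ± 0.33 (adjusted p = 0.00239) and the level at 96 h 3.89 times lower than at 48 h (adjusted p = 0.00123). Only 28 counts at 96 h and 21 at 120 h lie behind the late values, and 120 h over 96 h was at -0.37 ± 0.55 (adjusted p = 0.794).

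Pim1 fell on the first day to a level that the second day did not change further. Its libraries were at 41.3, 35.8, 34.7 and 35.9 CPM at 24 h, against 110, 124, 124 and 149 CPM in 2iL (-1.78 ± 0.22, adjusted p = 5.07e-07). All libraries at 24 h lie far below the lowest of 2iL. The change was -1.98 ± 0.22 at 48 h (adjusted p = 2.02e-08), -2.93 ± 0.23 at 96 h (adjusted p = 7.16e-12) and -2.13 ± 0.22 at 120 h (adjusted p = 1.37e-09). The step of 48 h over 24 h was at -0.20 ± 0.23 (adjusted p = 0.715), and 96 h over 48 h fell by 0.95 ± 0.24 (adjusted p = 0.00476). At 120 h Pim1 was at 23.5, 22.9, 47.7 and 21.4 CPM, against 22.5, 16.6, 11.3 and 16.2 CPM at 96 h, higher in 4 of 4 experiments (0.79 ± 0.24, adjusted p = 0.0781). With the experiment as a block this step was at 0.80 (adjusted p = 0.0485), and the high value is that of experiment 3. Over all alternative fits the step ran from 0.44 to 0.98 and its adjusted p from 0.0177 to 0.547.

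Pim3, the related kinase, had the smallest losses of the 8 at 96 and 120 h by fitted fold change. It averaged 73.9 ± 16.4 CPM in 2iL, 86.1 ± 28.3 at 24 h, 41.0 ± 8.68 at 48 h, 47.1 ± 3.00 at 96 h and 39.8 ± 7.04 at 120 h (SD, n = 4). The libraries at 48 h (38.4, 33.1, 39.1 and 53.4 CPM) lie below those of 2iL (53.6, 83.7, 68.0 and 90.3 CPM). The change was 0.21 ± 0.21 at 24 h (adjusted p = 0.557), -0.85 ± 0.22 at 48 h (adjusted p = 0.00277), -0.65 ± 0.21 at 96 h (adjusted p = 0.013) and -0.89 ± 0.21 at 120 h (adjusted p = 0.000838). Its fall came between 24 h and 48 h (48 h over 24 h, -1.07 ± 0.22, adjusted p = 0.00164), and the later steps were at 0.21 ± 0.22 (96 h over 48 h, adjusted p = 0.552) and -0.24 ± 0.22 (120 h over 96 h, adjusted p = 0.627).

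Junb had the fewest counts of the 8 and, relative to its mean, the widest spread in 2iL. Its libraries were at 7.83, 2.48, 3.15 and 3.13 CPM at 120 h, against 11.1, 34.3, 11.3 and 26.1 CPM in 2iL (-2.26 ± 0.43, adjusted p = 4.71e-05). These groups do not overlap, although both 2iL libraries near 11 CPM lie close to the highest of 120 h. It was at -0.92 ± 0.40 at 24 h (adjusted p = 0.116) and -1.67 ± 0.42 at 48 h (adjusted p = 0.00255). Between times it was at -0.75 ± 0.44 in 48 h over 24 h (adjusted p = 0.374), 0.67 ± 0.43 in 96 h over 48 h (adjusted p = 0.29) and -1.26 ± 0.44 in 120 h over 96 h (adjusted p = 0.132). At 96 h against 2iL Junb was at -1.0 ± 0.39 (adjusted p = 0.0369), a call lost in 5 of 8 fits that leave out 1 library. The adjusted p was then 0.227 and 0.093 without the 2iL library of experiment 2 or 4, and 0.0737, 0.0691 and 0.0832 without the 96 h library of experiment 1, 2 or 3.

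From 96 h to 120 h edgeR called 0 of the 8 genes, while 4 had an unadjusted p under 0.05 and DESeq2 called 1 (Pim1). Of all 11080 genes tested in edgeR, 1784 had an unadjusted p under 0.05 in this step. By adjusted p this step called few genes in all, 1.14% of those tested. Without the 120 h library of experiment 1, 2 of the 8 were called, Pim1 (0.90, adjusted p = 0.0439) and Junb (-1.78, adjusted p = 0.0398). Without the 96 h library of experiment 3, 2 were called, Lifr (-0.97, adjusted p = 0.0334) and Stat3 (-0.82, adjusted p = 0.0304). Over all alternative fits the adjusted p reached 0.547 for Pim1, 0.407 for Junb, 0.338 for Lifr and 0.407 for Stat3. In the earlier steps 3 of 8 fell in 48 h over 24 h (Stat3, Bcl3 and Pim3), against 3.1% of all genes (3.47% rose), and 4 of 8 in 96 h over 48 h (Lifr, Stat3, Bcl3 and Pim1), against 9.93% (11.5% rose).

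**Figure D2:**
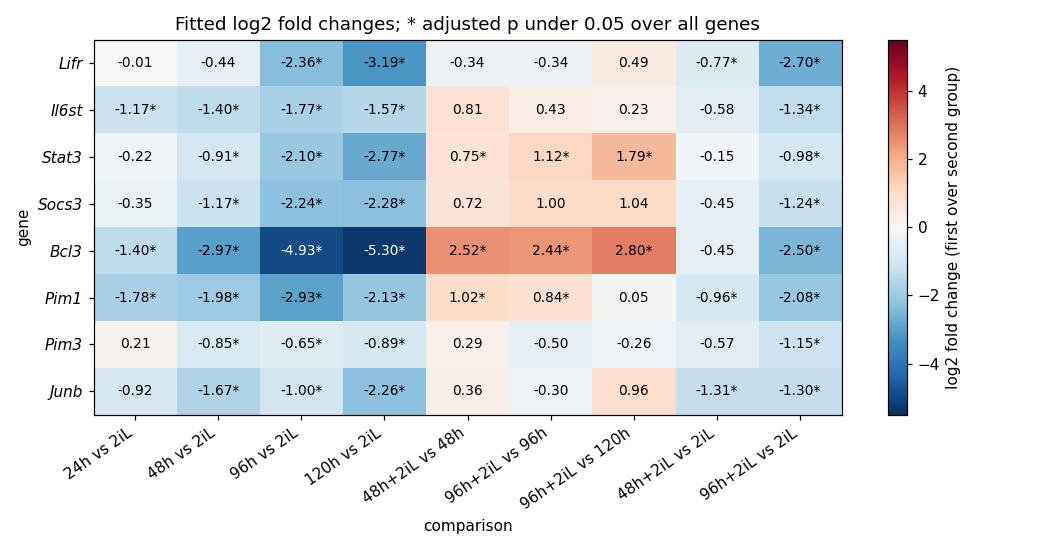
Fitted log2 fold changes of the 8 genes (rows) in 9 comparisons (columns), first group over second, with the colour scale at the right and an asterisk where the adjusted p over all genes was under 0.05. All 8 genes are negative at 96 h and 120 h against 2iL, and Stat3 and Bcl3 are the genes called in each of the 3 comparisons of returned 2iL with withdrawn cells.

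With 2iL returned for 24 h, Stat3, Bcl3 and Pim1 rose over the withdrawn cells after both lengths of withdrawal, and Lifr did not. In 48 h + 2iL over 48 h, 3 of 8 genes rose, against 7.24% of all tested genes (7.67% fell), and in 96 h + 2iL over 96 h the same 3 rose, against 4.02% (5.23% fell). The median log2 fold change of the 8 was 0.74 in the first and 0.64 in the second, beside 0.00 over all genes in both. The returned cells had also been cultured 24 h longer than the withdrawn cells they are set against. For the cells withdrawn for 96 h the 120 h group has the same total time, and 2 of 8 (Stat3 and Bcl3) were higher in 96 h + 2iL than at 120 h, against 1.28% of all genes (1.34% were lower). Pim1 was not, at 0.05 ± 0.23 (adjusted p = 0.96). The 48 h + 2iL cells have no group of the same total time.

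**Figure D3:**
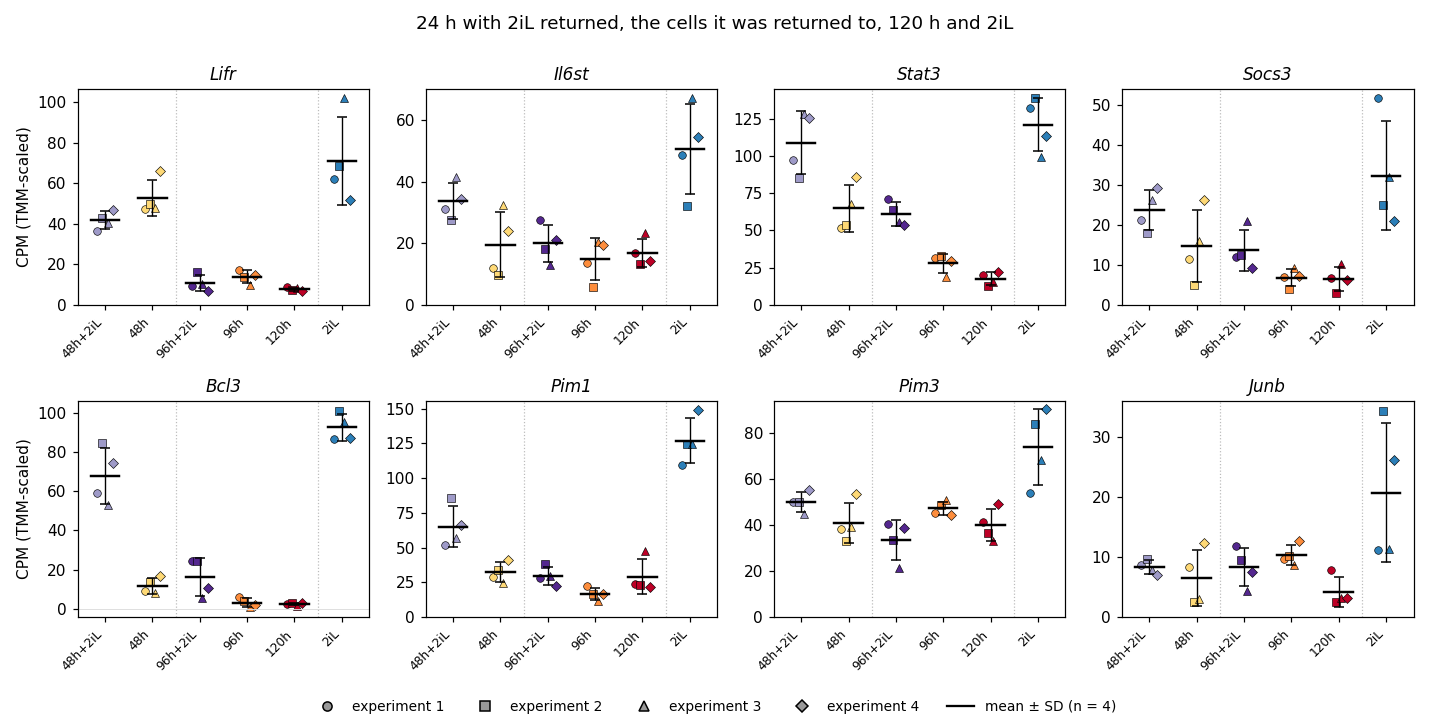
CPM after TMM scaling (vertical axis) of the 8 genes in 48 h + 2iL beside 48 h, in 96 h + 2iL beside 96 h and 120 h, and in 2iL (horizontal axis). Symbols are single libraries by experiment, lines are means and bars are SD over 4 libraries. Bcl3 in 48 h + 2iL lies at 53.2 to 84.9 CPM, above all 48 h libraries and below all 2iL libraries, and Lifr in 48 h + 2iL lies below all 48 h libraries.

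Bcl3 had the largest fitted change of the 8 in both returns. Its libraries were at 59.1, 84.9, 53.2 and 74.5 CPM in 48 h + 2iL, against 8.81, 13.8, 7.94 and 16.6 CPM at 48 h (2.52 ± 0.32, adjusted p = 6.94e-07). In 96 h + 2iL they were at 24.2, 24.3, 5.35 and 10.6 CPM, against 5.96, 3.64, 0.872 and 1.62 CPM at 96 h (2.44 ± 0.41, adjusted p = 0.000145). The groups do not overlap after 48 h. After 96 h the ranges overlap across experiments, yet Bcl3 was higher in 4 of 4 experiments when libraries of 1 experiment are paired. The mean was 73.2% of that in 2iL in 48 h + 2iL, against 12.7% at 48 h, and 17.4% in 96 h + 2iL, against 3.26% at 96 h.

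The 96 h + 2iL libraries were uneven in the same way for Bcl3 and for the naive markers. The naive marker sum in experiments 1 to 4 was 559, 502, 70.6 and 259 CPM in 96 h + 2iL, against 185, 129, 58.0 and 116 CPM at 96 h. The neural progenitor sum was 157, 210, 538 and 335 CPM in 96 h + 2iL, against 131, 77.6, 238 and 118 CPM at 96 h. Experiment 3, lowest in Bcl3, was lowest in the naive sum and highest in the neural sum. The part of this difference in the Bcl3 values was not tested.

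Stat3 rose in both returns. The libraries were at 97.1, 84.9, 128 and 126 CPM in 48 h + 2iL, against 51.8, 53.8, 67.8 and 85.9 CPM at 48 h (0.75 ± 0.20, adjusted p = 0.00798). They were at 71.2, 63.9, 56.0 and 53.4 CPM in 96 h + 2iL, against 31.2, 32.7, 18.8 and 29.6 CPM at 96 h (1.12 ± 0.21, adjusted p = 0.000621). In the second pair no library of one group reaches the other, and in the first pair the lowest returned library lies just under the highest 48 h library. Against the 120 h group, Stat3 was higher by 1.79 ± 0.22 (adjusted p = 5.99e-06) and Bcl3 by 2.80 ± 0.43 (adjusted p = 0.000137).

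Pim1 was at 52.1, 85.4, 56.9 and 66.1 CPM in 48 h + 2iL, against 29.0, 34.1, 24.4 and 41.1 CPM at 48 h, with no overlap (1.02 ± 0.22, adjusted p = 0.00142). In 96 h + 2iL it was at 28, 38.4, 29.7 and 22.3 CPM, against 22.5, 16.6, 11.3 and 16.2 CPM at 96 h (0.84 ± 0.24, adjusted p = 0.0227), and higher in 4 of 4 experiments. That second call was lost without the 96 h library of experiment 2 (adjusted p = 0.0552), 3 (0.0678) or 4 (0.0545) or the 96 h + 2iL library of experiment 2 (0.0995). It was also lost in a fit of only the groups compared (0.83, adjusted p = 0.0667). Against 120 h, Pim1 in 96 h + 2iL was at 0.05 ± 0.23 (adjusted p = 0.96).

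Lifr did not rise over the withdrawn cells in either return. Its libraries were at 36.4, 42.9, 40.3 and 47.0 CPM in 48 h + 2iL, against 47.2, 49.9, 47.6 and 66.2 CPM at 48 h. Every returned library lies below every 48 h library, but the change of -0.34 ± 0.21 did not pass the test (adjusted p = 0.337, approximate 95% interval -0.76 to 0.08). In 96 h + 2iL Lifr was at 9.49, 16.1, 10.2 and 6.83 CPM, against 17.4, 13.7, 9.59 and 14.6 CPM at 96 h (-0.34 ± 0.26, adjusted p = 0.478). These groups overlap, and the upper bound of the interval was 0.18. Against 120 h, Lifr in 96 h + 2iL was higher in 4 of 4 experiments, at 0.49 ± 0.28 (adjusted p = 0.505).

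Il6st was at 31.3, 27.8, 41.6 and 34.4 CPM in 48 h + 2iL, against 11.9, 9.87, 32.4 and 23.9 CPM at 48 h. It was higher in 4 of 4 experiments, at 0.81 ± 0.33 (adjusted p = 0.0946), and with the experiment as a block at 0.87 (adjusted p = 0.0154). In 96 h + 2iL over 96 h it was at 0.43 ± 0.34 (adjusted p = 0.492). Socs3 was at 21.2, 18.1, 26.2 and 29.3 CPM in 48 h + 2iL, against 11.4, 4.94, 15.9 and 26.4 CPM at 48 h (0.72 ± 0.38, adjusted p = 0.23), higher in 4 of 4 experiments. In 96 h + 2iL over 96 h Socs3 was at 1.00 ± 0.42 (adjusted p = 0.138), or 1.04 with the block (adjusted p = 0.0447). Over all alternative fits the adjusted p of this Socs3 change ran from 0.0407 to 0.384. All 96 h + 2iL libraries of Socs3 (9.31 to 20.9 CPM) lie above those at 96 h (4.04 to 9.16 CPM), higher in 4 of 4 experiments. Without the 48 h library of experiment 3, Il6st after 48 h was at 1.18 (adjusted p = 0.0231). Over all alternative fits Il6st after 48 h ran from 0.59 to 1.18 and its adjusted p from 0.0154 to 0.287.

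Pim3 and Junb did not pass the test in either return. Pim3 was at 0.29 ± 0.22 in 48 h + 2iL over 48 h (adjusted p = 0.437) and at -0.50 ± 0.22 in 96 h + 2iL over 96 h (adjusted p = 0.164). Its libraries in that second comparison, at 40.3, 33.4, 21.4 and 38.5 CPM in 96 h + 2iL, all lie below those at 96 h, at 45, 48.5, 50.6 and 44.2 CPM. Junb was at 0.36 ± 0.44 (adjusted p = 0.661) after 48 h and at -0.30 ± 0.41 (adjusted p = 0.728) after 96 h.

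At the matched total time the other 5 genes did not pass the test in 96 h + 2iL over 120 h. Lifr was at 0.49 ± 0.28 (adjusted p = 0.505), Il6st at 0.23 ± 0.34 (adjusted p = 0.855) and Socs3 at 1.04 ± 0.42 (adjusted p = 0.235). Pim3 was at -0.26 ± 0.22 (adjusted p = 0.698) and Junb at 0.96 ± 0.45 (adjusted p = 0.348). Within experiments, Lifr, Socs3 and Junb were higher in 4 of 4, Il6st was higher in 3 of 4, and Pim3 was lower in 4 of 4.

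The response to returned 2iL after 96 h did not pass a test of difference from that after 48 h for any of the 8 genes. The interaction in edgeR called 0 of 8, DESeq2 called 0, and 1 gene, Pim3, had an unadjusted p under 0.05. Of all 11080 genes tested in edgeR, 1232 had an unadjusted p under 0.05 for the interaction. The quasi-likelihood fit across all genes gave Pim3 a difference of -0.79 ± 0.31 (adjusted p = 0.295). By adjusted p the test called 0.921% of all genes. For Bcl3 the difference was -0.09 ± 0.68, with an approximate 95% interval of -1.42 to 1.25, which leaves room for a difference of more than a log2 unit.

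After 48 h and return, all 8 genes had a negative change against cells never withdrawn, and some passed the test. Differences between genes were not tested. In 48 h + 2iL, 3 of 8 genes were lower than in 2iL, against 5.49% of all genes (6.14% were higher). These were Lifr (-0.77 ± 0.21, adjusted p = 0.0135), Pim1 (-0.96 ± 0.21, adjusted p = 0.00192) and Junb (-1.31 ± 0.40, adjusted p = 0.0272). Stat3 was at -0.15 ± 0.19 (adjusted p = 0.692, approximate 95% interval -0.53 to 0.22). Bcl3 was at -0.45 ± 0.27 (adjusted p = 0.321), although its libraries lie below those of 2iL. Il6st was at -0.58 ± 0.30 (adjusted p = 0.232) and Socs3 at -0.45 ± 0.35 (adjusted p = 0.476). Pim3 was at -0.57 ± 0.21 (adjusted p = 0.0758), and was called with the experiment as a block (-0.57, adjusted p = 0.041), and without the 2iL library of experiment 1 (-0.69, adjusted p = 0.0371). Over all alternative fits Pim3 ran from -0.69 to -0.46 and its adjusted p from 0.0371 to 0.216. The Lifr call was lost without the 2iL library of experiment 3 (-0.54, adjusted p = 0.107). The Junb call was lost in 5 of 8 fits: the adjusted p was 0.168 and 0.0784 without the 2iL library of experiment 2 or 4, and 0.0537, 0.0751 and 0.0768 without the 48 h + 2iL library of experiment 1, 3 or 4.

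All 8 genes were lower in 96 h + 2iL than in 2iL, against 19.5% of all genes (21.4% were higher). Lifr was furthest below (-2.70 ± 0.24, adjusted p = 1.39e-10), followed by Bcl3 (-2.5 ± 0.3, adjusted p = 6.12e-08) and Pim1 (-2.08 ± 0.22, adjusted p = 4.38e-09). Il6st was at -1.34 ± 0.32 (adjusted p = 0.00092) and Pim3 at -1.15 ± 0.22 (adjusted p = 6.92e-05). Stat3 was closest to 2iL, with a change of -0.98 ± 0.20 (adjusted p = 0.000151). Its mean was 50.5% of that in 2iL, while that of Lifr was 15%. The call for Socs3 (-1.24 ± 0.37, adjusted p = 0.00767) was lost without the 2iL library of experiment 1 (adjusted p = 0.056), and that for Junb (-1.30 ± 0.40, adjusted p = 0.00911) without the 2iL library of experiment 2 (0.0776).

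By level, the order of groups for Bcl3 was 2iL, 48 h + 2iL, 24 h, 96 h + 2iL, 48 h, 96 h and 120 h, at means of 92.8, 67.9, 35.3, 16.1, 11.8, 3.02 and 2.31 CPM. Of these neighbours, 2iL and 48 h + 2iL did not differ by the test, 96 h + 2iL and 48 h overlap, and 96 h and 120 h overlap. For Lifr the order was 2iL and 24 h (70.9 and 70.8 CPM), 48 h (52.7), 48 h + 2iL (41.7), 96 h (13.8), 96 h + 2iL (10.7) and 120 h (7.71). The groups withdrawn for 96 h or longer thus held the lowest Lifr values, whether 2iL was returned or not. For Stat3 the order was 2iL (121 CPM), 48 h + 2iL (109), 24 h (105), 48 h (64.8), 96 h + 2iL (61.1), 96 h (28.1) and 120 h (17.5), and the first 3 overlap, as do 24 h and 48 h, 48 h and 96 h + 2iL, and 96 h and 120 h.

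Likeness of pattern was measured as the root mean square difference between the 7 group means of log2(CPM + 0.5), each gene centred on its own mean, over 8976 candidate genes with at least 10 CPM in some group. The nearest to Bcl3 was the naive-state nuclear receptor gene Esrrb (0.18 log2 units), then Lrrc31 (0.24) and Fam25c (0.29). Near to Stat3 were the noncoding RNA Neat1 (0.19) and the metalloproteinase inhibitor gene Timp1 (0.29). Nearest to Lifr were the adhesion receptor gene Icam1 (0.13), Arid5b (0.14) and Zfp990 (0.17), and nearest to Pim1 were Cabp1 (0.16), Kyat3 (0.19) and Tbc1d8 (0.24). The first neighbour was Cdk19 for Il6st (0.077), Skap2 for Socs3 (0.15), Amph for Pim3 (0.098) and Creld1 for Junb (0.19). Among the 8 themselves the most alike pair was Socs3 and Stat3 (0.26) and the least alike Bcl3 and Pim3 (1.65). The receptor chains Lifr and Il6st were 0.98 apart.

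**Figure D4:**
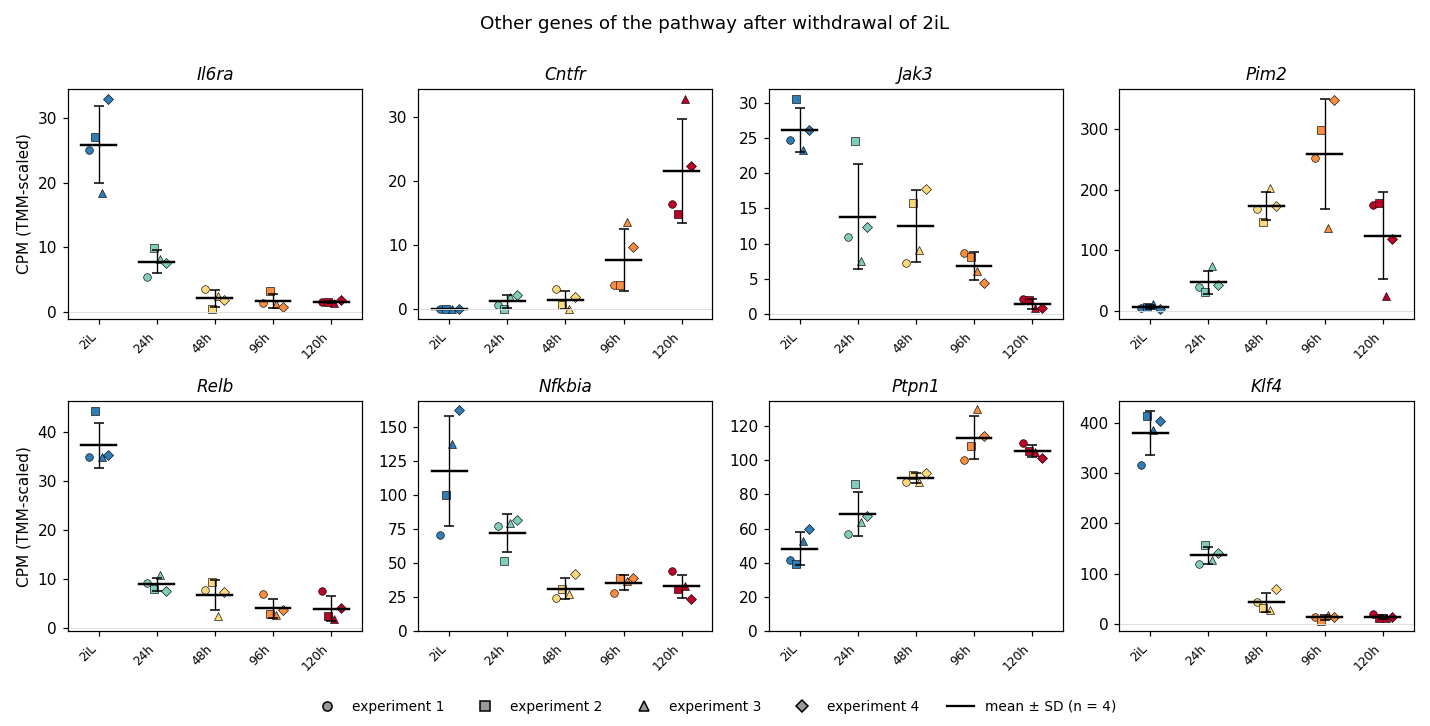
CPM after TMM scaling (vertical axis) of 8 other genes of the pathway in 2iL and after 24, 48, 96 and 120 h of withdrawal (horizontal axis). Symbols are single libraries by experiment, lines are means and bars are SD over 4 libraries. The receptor genes Il6ra and Cntfr run in opposite directions, with means of 1.53 and 21.6 CPM at 120 h, against 25.9 and 0 CPM in 2iL.

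Partner receptor chains, which pair with gp130 for other cytokines of the family, changed in both directions. Of 4 listed, 3 were tested, and at 120 h against 2iL 2 rose and 1 fell. Over all tested genes, 24.6% rose and 22.6% fell in that comparison. Il6ra, the binding chain for interleukin 6, averaged 1.53 CPM at 120 h against 25.9 CPM in 2iL (-4.02 ± 0.44, adjusted p = 5.45e-09) and had already fallen by 1.71 ± 0.37 at 24 h (adjusted p = 0.00135). It rose in 48 h + 2iL over 48 h (1.56 ± 0.47, adjusted p = 0.0222), a call lost without the 48 h + 2iL library of experiment 1 (adjusted p = 0.0606) or 2 (0.114) or the 48 h library of experiment 2 (0.094) or 4 (0.0541). Cntfr, the binding chain for ciliary neurotrophic factor, had 197 counts at 120 h, 139 in 96 h + 2iL and 0 in 2iL, and was thus not less than 63.9 times higher at 120 h and 51.3 times higher in 96 h + 2iL, taking 3 counts over the 2iL group as the floor. Il11ra1, the binding chain for interleukin 11, was at 21 CPM at 120 h against 7.40 CPM in 2iL (1.5 ± 0.32, adjusted p = 0.000215). Osmr had at most 5 counts in any group.

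Cytokine genes of the family were too low to test, all 9 of them. Lif itself had 0 counts at 120 h and 8 in 2iL. Osm, which encodes oncostatin M, had 3 counts at 24 h, 0 at 120 h and 0 in 96 h + 2iL, against 46 in 2iL, and 14 counts in 48 h + 2iL. The ratio of 2iL over 24 h was 11.8 (exact 95% interval 3.80 to 59.4, counting error only), and 9.56 to 14.7 without any 1 of the 2iL libraries. Clcf1 had 29 counts at 48 h against 2 in 2iL.

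Of 10 JAK kinases and other STATs, 8 were tested. Of these, 3 fell at 48 h against 2iL (Jak1, Jak3 and Stat2), 4 fell at 96 h, and at 120 h 5 fell (Jak3 and Tyk2 among them) and 2 rose (Jak2 and Stat5b). For all tested genes, 13.2% fell at 48 h and 19.2% at 96 h, and at 120 h 22.6% fell and 24.6% rose. The list's median log2 fold change at 120 h was -1.11, beside 0.01 over all genes. Jak3 averaged 1.5 CPM at 120 h against 26.1 CPM in 2iL (-4.05 ± 0.43, adjusted p = 2.09e-09), and at the matched time it was higher in 96 h + 2iL (7.09 CPM) than at 120 h (2.20 ± 0.47, adjusted p = 0.00592), a call lost without the 96 h + 2iL library of experiment 2 (1.87, adjusted p = 0.0569). Jak1, the kinase most tied to gp130, averaged 77.9 CPM at 120 h and 61.1 CPM in 2iL (0.35 ± 0.16, adjusted p = 0.0654), and was called without the library of experiment 2 at 120 h (adjusted p = 0.0281) or in 2iL (0.0368). Without the 120 h library of experiment 3, Jak1 was at 0.19 (adjusted p = 0.369). Jak2 was at 7.99 CPM at 120 h and 1.82 CPM in 2iL (2.04 ± 0.61, adjusted p = 0.0065).

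Of the regulators 13 of 15 were tested, and at 120 h 5 rose and 5 fell relative to 2iL, with a median of 0.05. The shares over all tested genes were 24.6% risen and 22.6% fallen. Ptpn1, a tyrosine phosphatase that acts on JAK kinases, was at 68.4 CPM at 24 h against 48.2 CPM in 2iL (0.51 ± 0.15, adjusted p = 0.0166) and at 105 CPM at 120 h (1.13 ± 0.15, adjusted p = 1.06e-07). The 24 h call was lost without the 24 h library of experiment 2 (adjusted p = 0.113) or the 2iL library of experiment 1 (0.0547) or 2 (0.0806). Ptpn1 fell in 48 h + 2iL over 48 h (-0.54 ± 0.15, adjusted p = 0.00983), where leaving out the 48 h + 2iL library of experiment 2 gave an adjusted p of 0.05004. Ptpn11, the phosphatase SHP2 that links gp130 to ERK, rose by 0.78 ± 0.16 at 120 h (adjusted p = 0.000174). Socs2, a relative of Socs3, averaged 59.1 CPM in 96 h + 2iL against 144 CPM at 96 h (-1.27 ± 0.20, adjusted p = 6.27e-05). At the matched total time, 96 h + 2iL over 120 h, 0 of the 13 regulators tested were called, so Socs2 was not. Socs7 was at 38.1 CPM in 48 h + 2iL against 16.9 CPM at 48 h (1.18 ± 0.20, adjusted p = 6.39e-05).

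Other targets of LIF and STAT3 were 11, of which 9 were tested, and 5 fell and 1 rose at 120 h against 2iL, with a median of -0.92. Beside this, 22.6% of all tested genes fell and 24.6% rose. Klf4, a naive pluripotency factor, averaged 136 CPM at 24 h against 380 CPM in 2iL (-1.48 ± 0.24, adjusted p = 3.77e-05). In 48 h + 2iL it averaged 164 CPM against 42.9 CPM at 48 h (1.94 ± 0.26, adjusted p = 2.10e-06), and in 96 h + 2iL 36.8 CPM against 13 CPM at 96 h (1.52 ± 0.31, adjusted p = 0.00129). Pim2, the third PIM kinase, rose where Pim1 fell. It averaged 6.74 CPM in 2iL, 47.0 at 24 h, 173 at 48 h, 259 at 96 h and 124 at 120 h, and rose by 2.72 ± 0.49 at 24 h (adjusted p = 0.000126) and by 5.19 ± 0.46 at 96 h (adjusted p = 7.91e-11). With 2iL returned Pim2 was at 34.9 CPM in 48 h + 2iL against 173 CPM at 48 h (-2.30 ± 0.38, adjusted p = 4.65e-05), and at 16.7 CPM in 96 h + 2iL against 259 CPM at 96 h (-3.92 ± 0.41, adjusted p = 8.71e-08).

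The NF-kB and I-kappa-B family, in which Bcl3 belongs, had 7 of 8 genes tested, and 2 fell at 24 h (Relb and Nfkbia), while 3 fell and 1 rose at 120 h (median -0.27). Among all tested genes, 8.29% fell at 24 h, and at 120 h 22.6% fell and 24.6% rose. Relb, an NF-kB subunit, averaged 8.86 CPM at 24 h against 37.3 CPM in 2iL (-2.07 ± 0.34, adjusted p = 3.53e-05) and 3.94 CPM at 120 h. In 48 h + 2iL Relb was at 24.7 CPM against 6.74 CPM at 48 h (1.84 ± 0.35, adjusted p = 0.000276). After 96 h it was at 4.41 CPM in 96 h + 2iL against 3.99 CPM at 96 h (0.20 ± 0.42, adjusted p = 0.836). Nfkbia, the main I-kappa-B inhibitor, was at 102 CPM in 48 h + 2iL against 31.3 CPM at 48 h (1.70 ± 0.24, adjusted p = 5.88e-06).

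Of the AP-1 family beside Junb 4 of 6 genes were tested, and for comparison 8.29% of all tested genes fell at 24 h. At 24 h 2 fell: Jun (-1.31 ± 0.33, adjusted p = 0.00501) and Fos, with 3 counts at 24 h against 102 in 2iL (ratio of 2iL over 24 h 26.2, exact 95% interval 8.72 to 129, counting error only). Both are immediate early genes. In 2iL the Fos libraries were at 1.45, 27.9, 10.9 and 2.84 CPM, and that of experiment 2 holds 65 of the counts. Without it the ratio was 12.9 (4.09 to 65.5), and the adjusted p at 24 h was 0.0126. At 96 h Jun was higher than in 2iL, at 41.6 against 19.3 CPM (1.10 ± 0.28, adjusted p = 0.00163), and Fos was lower (-2.31 ± 0.69, adjusted p = 0.00769), a call lost without the same 2iL library (-1.27, adjusted p = 0.167).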

How the data were processed

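RNA of 28 libraries of mouse E14 cells was sequenced by 3′ DGE, per the labels. The submitters' processing notes name bcl2fastq, STAR 2.6.0a, HTSeq and mm10, without role or order. The deposited files hold raw counts per gene, and the authors' table holds CPM; all 28 columns equalled CPM from the counts within 1e-06. The titles name a 120 h group, although the protocol's list of times ends at 96 h.

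Genes with too few counts were dropped (filterByExpr, minimum count 10 and minimum total 15). TMM factors and a single quasi-likelihood fit over all 7 groups followed (edgeR 4.0.16, R 4.3.3). Then 12 contrasts of 2 groups and 1 interaction were tested two-sided, with Benjamini-Hochberg adjustment over 11080 genes. The standard error is the absolute change over the square root of F, and intervals are 1.96 standard errors, so both are approximate. The method was tried on simulated counts of the 24 h and 2iL groups only. These counts had the same spread for every gene and no experiment effect, so they did not test the fit over all 7 groups. The authors' count files list reads at more than 1 place apart from genes, as 52.3% to 60.1% of each library, and reads in no gene, as 6.68% to 8.58%; neither entered library sizes. Replicates exceeded sampling noise (chi-square per gene 2.48 to 11.3 over 42 pairs); whether they are separate cultures beyond the experiment is not stated. Lower bounds and count ratios cover counting error only.

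The titles number 4 experiments that each hold every group, which was read as pairing. Deviations from group means correlated at -0.01 to 0.42 between libraries of the same number, and 24 of 28 libraries correlated best with their own number. Alternatives were library totals, RLE factors, no filter, DESeq2 1.42.0, the experiment as a block, fits of the compared groups alone and leaving out each library. Leaving out a library was also applied to genes outside the 8, and to the Fos and Osm count ratios, a choice made after seeing the data. By rule, all 8 genes are named in every comparison of 2 groups, genes of the related lists may be named whether called or not, and the 3 tested genes of nearest pattern are given, without predicted genes (Gm, Rik) or mitochondrial ones; some genes are not reported here. The members and lists were chosen with earlier results of these data known.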

Additional observations from a re-analysis of the deposited data

Results flagged for a closer look

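Of 56 sets of 4 libraries (8 genes in 7 groups), 3 held a library far from the other 3, where chance alone would mark about 1 in 20. Lifr at 48 h was at 66.2 CPM in experiment 4, against 47.2 to 49.9 CPM in the others. Pim1 at 120 h was at 47.7 CPM in experiment 3, against 21.4 to 23.5 CPM in the others. Junb at 120 h was at 7.83 CPM in experiment 1, against 2.48 to 3.15 CPM in the others.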

How the results depend on the processing

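The 104 pairs of a gene and a comparison were refitted under each alternative, 1519 refits in all. In 1471 of them the call was as reported, and 0 reversed the direction of a called change. Library totals and RLE factors changed no call of the 8 genes. For 120 h over 96 h, where 0 of the 8 and 126 of all genes were called, no filter on low counts gave 2 and 653, DESeq2 gave 1 and 284, the replicate block gave 1 and 580, and a fit of only those groups gave 0 genes. For 96 h + 2iL over 120 h (291 genes), no filter gave 493 and the fit of only those groups 115. For the interaction (102 genes), no filter gave 321, DESeq2 168 and the replicate block 194. The replicate block changed 5 calls of the 8 genes, all given beside the results, and no other.

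Leaving out each library in turn gave 0 to 2 of the 8 genes and 0 to 686 of all genes for 120 h over 96 h. Counts of all genes ran from 424 to 628 for 48 h over 24 h (728 with all libraries), 658 to 1323 for 96 h + 2iL over 96 h (1024), 158 to 450 for 96 h + 2iL over 120 h, 759 to 1266 for 48 h + 2iL over 2iL (1288) and 49 to 136 for the interaction. The causes were not tested. Without a filter, Socs3 in 96 h over 48 h (adjusted p = 0.0203), Stat3 (0.0387) and Pim1 (0.0177) in 120 h over 96 h, Il6st in 48 h + 2iL over 48 h (0.0179) and Socs3 in 96 h + 2iL over 96 h (0.0407) were also called by edgeR. Depth limits Junb, Socs3 and late Bcl3 most, which had 40, 61 and 21 counts at 120 h.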
